A study of Mus musculus with 8 samples.

Results

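Hypoxia response genes outside glycolysis were followed as 10 genes listed by name: Bnip3, Bnip3l, Egln1, Egln3, Slc16a3, Ddit4, Vegfa, Hif1a, Ankrd37 and Ndrg1. Each symbol was matched to 1 Ensembl identifier among the 52636 in the count files, and all 10 passed the filter on low counts with which 15517 genes were tested. The genes were selected on their RNA levels in the same libraries, with the differences between genotypes already known, so their changes between genotypes describe the choice and support nothing beyond it. The study compared E14 mouse embryonic stem cells, a line derived from the blastocyst, without modification (WT) and with KLF4 knocked out (KLF4-KO, here KO). KLF4 is a DNA-binding factor with zinc fingers that helps to keep stem cells naive. RNA-seq comprised 2 libraries per genotype, called biological replicates in the labels. The labels also list 2 HiChIP samples per genotype for RNA polymerase II (Pol II), an assay that joins and sequences chromatin ends lying close together at sites bound by 1 protein, and the deposited contacts form 1 pooled file per genotype. For both genotypes the protocols give 2 media on gelatin, both with 15% serum, 1 with 10 ng/mL LIF, the MEK inhibitor PD0325901 at 1 µM and the GSK3 inhibitor CHIR99021 at 3 µM, and 1 with 1000 U/mL LIF. The sources used here do not give which medium or oxygen level each library's cells had, or whether the KO libraries come from 1 clone.

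The response to low oxygen runs through the hypoxia-inducible factors (HIFs), each made of an oxygen-regulated alpha subunit, such as the product of Hif1a or Epas1, and the stable partner ARNT. When oxygen is present, prolyl hydroxylases such as those encoded by Egln1 and Egln3 mark the alpha subunit for the VHL ubiquitin ligase and its destruction. HIF1-alpha is therefore controlled mostly as a protein, which RNA counts do not measure. When stable, the factors bind the short core ACGTG or GCGTG near genes for sugar metabolism, lactate export, removal of mitochondria, vessel growth and restraint of mTORC1. Egln3 and Egln1 are themselves targets, as part of a negative feedback. Stem cells in the naive state use both respiration and glycolysis, while primed ones lean on glycolysis.

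RefSeq promoter windows (GRCm38.p6, 250 bases before to 50 after an annotated start) were found for 8 of the 10 genes, with 2 starts for Vegfa and thus 9 windows. Bnip3l and Ndrg1 had no window. The sequences below show how the core of the HIF site is spread over genes that were higher in KO (Bnip3, Egln3, Slc16a3 and Ankrd37) and genes that were not (Ddit4 and Vegfa). Each runs 5′ to 3′ along the gene's strand and ends at the base before the start. Capitals mark ACGTG or GCGTG on either strand, so that CACGT and CACGC are the same cores read from the opposite strand.
Bnip3 (chr7:138909507-138909756, minus strand): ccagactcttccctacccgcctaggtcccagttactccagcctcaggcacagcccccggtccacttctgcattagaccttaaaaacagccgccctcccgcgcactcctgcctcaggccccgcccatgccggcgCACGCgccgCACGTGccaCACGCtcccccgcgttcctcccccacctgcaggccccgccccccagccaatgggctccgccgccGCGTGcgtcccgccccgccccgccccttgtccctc
Egln3 (chr12:54203875-54204124, minus strand): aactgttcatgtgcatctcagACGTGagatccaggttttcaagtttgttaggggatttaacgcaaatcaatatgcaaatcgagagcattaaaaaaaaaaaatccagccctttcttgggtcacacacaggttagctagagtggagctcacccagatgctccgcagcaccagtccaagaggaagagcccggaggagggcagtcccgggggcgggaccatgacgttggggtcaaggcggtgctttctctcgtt
Slc16a3, last 30 bases (chr11:120949037-120949066, plus strand): gtgACGTGcgcgggggACGTGccgcgcgac
Ankrd37, last 30 bases (chr8:45999851-45999880, minus strand): ggctgcacatgtcagtgtttgggtACGTGa
Ddit4 (chr10:59951771-59952020, minus strand): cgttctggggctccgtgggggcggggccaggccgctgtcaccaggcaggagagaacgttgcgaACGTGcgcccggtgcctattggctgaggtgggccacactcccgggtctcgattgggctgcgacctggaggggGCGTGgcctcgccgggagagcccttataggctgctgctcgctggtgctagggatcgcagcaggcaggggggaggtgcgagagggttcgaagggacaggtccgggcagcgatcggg
Vegfa, outer start (chr17:46032378-46032627, minus strand): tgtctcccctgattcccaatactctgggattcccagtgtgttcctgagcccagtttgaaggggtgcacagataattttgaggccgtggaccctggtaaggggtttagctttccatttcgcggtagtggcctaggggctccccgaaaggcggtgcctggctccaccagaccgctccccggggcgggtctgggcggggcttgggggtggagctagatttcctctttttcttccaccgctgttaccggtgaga

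The Bnip3 promoter held 5 matches to the HIF cores, the most among these windows, and 4 of them began between -117 and -99 from the start. The palindrome CACGTG gave 2 of these, at -108 and -107, since it counts once on each strand. Bnip3 was ahead of Ankrd37 only through this double count. Slc16a3 held 2 copies of ACGTG within its last 30 bases, at -27 and -14. Ankrd37 held 4 matches, of which 1 began at -6. In Egln3 a single match lay at -229. The genes that did not pass the threshold held such cores too. Hif1a had 3 matches (2 of them from the palindrome, at -135 and -134), Egln1 had 2 and Ddit4 had 2, at -187 and -115. The outer Vegfa start had 0, and the inner start, which lies inside the gene, had 2. The windows of Hif1a, Ankrd37 and Slc16a3 also lie inside the annotated spans of their genes. In all, ACGTG was present in 8 of the 9 windows, against 19.62% of all 32851 windows and 25.15% of the 13708 windows of tested genes. GCGTG was present in 5 of 9, against 32.39% of all windows and 49.84% of those of tested genes. The CACCC core, which KLF factors bind, was present in 7 of 9, against 57.52% and 63.87%. GC content ran from 54.67% to 86% in the 9 windows, with a median of 52.67% over all windows, and its part in these shares was not tested. Search was on both strands with no mismatch, and a match is a stretch of letters, not a shown binding site.

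**Figure D1:**
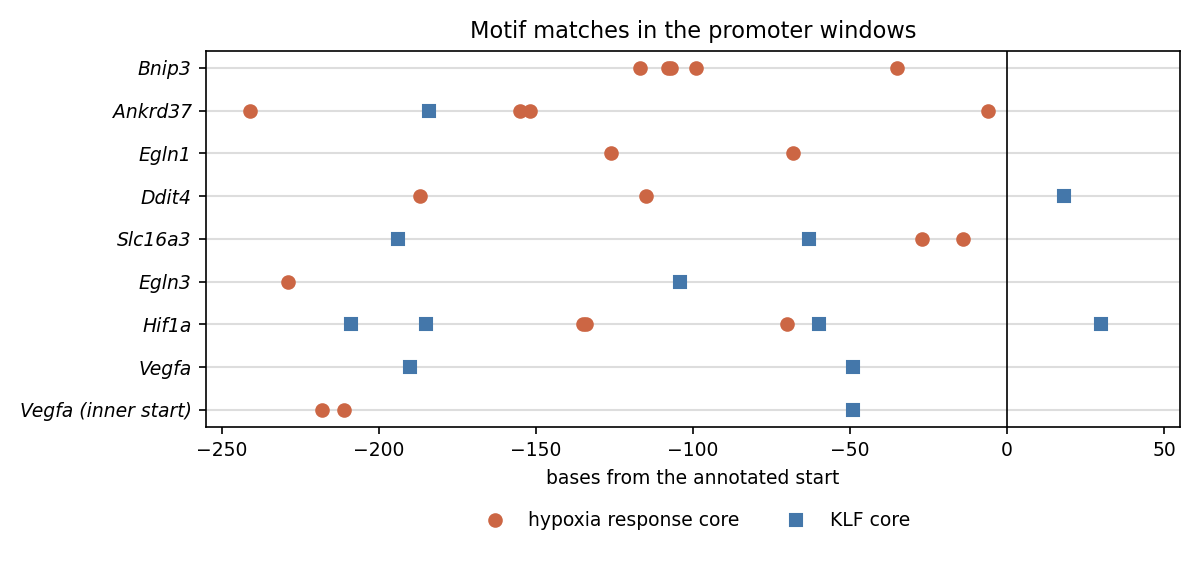
Positions of motif matches in the promoter windows of 8 genes (rows; Vegfa has 2 starts), in bases from the annotated start (x axis, 0 at the start). Circles are HIF cores and squares KLF cores, on either strand, and Bnip3 shows 5 circles while the outer Vegfa start shows none.

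Gene counts summed to between 8287497 and 9762190 per RNA-seq library. Klf4 had 2882 and 2421 counts in WT and 0 in both KO libraries. Over all tested genes, 460 were higher and 828 lower in KO (edgeR quasi-likelihood test, FDR 0.05), or 2.96% and 5.34%, and the median log2 fold change was -0.0015. Stem cell markers were high in all libraries, with a summed level between 6889 and 8090 CPM (counts scaled to library size) and none of 8 past the threshold. Of 10 fibroblast markers, Lum, Postn and S100a4 had 0 counts throughout, and the summed level was 9.94 to 16.8 CPM. The 11 primitive endoderm markers summed to 269 and 176 CPM in WT and 81.8 and 120 in KO. Only 5 of the 11 passed the filter on low counts, and Afp had 0 counts. Lama1 carried most of that sum and was called lower (log2 fold change -1.85). Gata6 and Col4a1 were called higher, Gata6 from only 4 and 3 counts in WT and 25 and 24 in KO. The 9 trophoblast markers, 5 of them tested, summed to 79.2 to 137 CPM. Hand1 was called higher, from only 2 and 2 counts in WT and 20 and 12 in KO. The part of other cell types in the results below was not tested, and in bulk RNA fewer expressing cells and less RNA per cell cannot be told apart.

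Of the 10 hypoxia response genes, 5 were called higher in KO, where 2.96% of all tested genes were, and 0 were called lower, where 5.34% were (1 was lower at an unadjusted p under 0.05 in edgeR, DESeq2 and limma voom alike, with no lower call by any of the 3). Bnip3, Slc16a3, Egln3, Ndrg1 and Ankrd37 had both KO libraries above both WT libraries, as 26% of tested genes did. Bnip3l and Vegfa had both KO libraries below both WT libraries, as 27.5% did. Egln1, Ddit4 and Hif1a overlapped between genotypes. The median log2 fold change (KO minus WT) of the 10 genes was 1.08. These counts follow from how the genes were picked, and nothing is read from them.

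**Figure D2:**
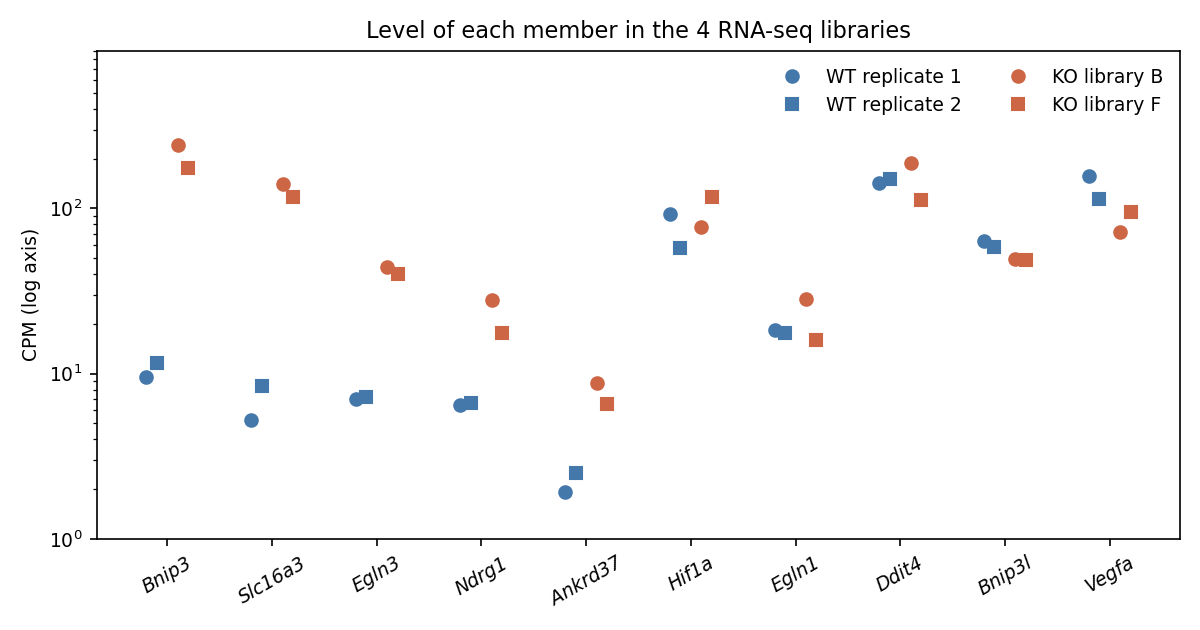
Level of each gene in CPM (y axis, log scale) in the 4 RNA-seq libraries, with genes ordered by fold change and symbols for the single libraries. Bnip3, Slc16a3, Egln3, Ndrg1 and Ankrd37 stand apart between genotypes, and the levels of Hif1a, Egln1 and Ddit4 overlap.

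Among the oxygen sensors, Egln3 and Egln1 parted. Egln3 (ENSMUSG00000035105, chromosome 12, 54178981 to 54203874), a prolyl hydroxylase whose RNA is known to climb steeply in low oxygen, stood at 7.01 and 7.18 CPM in WT and at 44.1 and 40.0 CPM in KO. The replicates of each genotype lay close together and the genotypes far apart, with a log2 fold change of 2.56 ± 0.29 (SE, n = 2 libraries per genotype here and below). Egln1 (ENSMUSG00000031987, chromosome 8, 124908587 to 124949254), the main hydroxylase of HIF1-alpha at normal oxygen, stood at 18.5 and 17.6 CPM in WT and at 28.1 and 15.9 CPM in KO. KO library B was the highest and KO library F the lowest of the 4, and the log2 fold change was 0.29 ± 0.35. Hif1a (ENSMUSG00000021109, chromosome 12, 73901324 to 73947554), the alpha subunit, stood at 92.3 and 57.5 CPM in WT and at 76.7 and 117 CPM in KO. Its WT libraries differed more between themselves than the genotype means did, and the log2 fold change was 0.37 ± 0.32. The lncRNA Gm15283 overlaps 12831 bp of Hif1a and had 199, 29, 88 and 241 counts in WT 1, WT 2, KO B and KO F. Its counts ranked the libraries in the same order as those of Hif1a, and since the strand setting of the counting is not given, reads of the pair cannot be told apart.

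The mitophagy receptors also parted. Bnip3 (ENSMUSG00000078566, chromosome 7, 138890836 to 138909506), an outer membrane protein that tethers mitochondria to the autophagy machinery, stood at 9.56 and 11.5 CPM in WT and at 242 and 175 CPM in KO. That was the widest separation among the 10 genes, a 19.8-fold difference, with a log2 fold change of 4.30 ± 0.30. The pseudogene Gm18258 lies within Bnip3 (988 bp) and had 2, 0, 7 and 4 counts in the same order of libraries. Bnip3l (ENSMUSG00000022051, chromosome 14, 66985238 to 67008877), the paralog also called NIX, stood at 63.2 and 58.1 CPM in WT and at 49.5 and 48.4 CPM in KO. Both KO libraries lay below both WT libraries by a small margin, and the log2 fold change was -0.31 ± 0.24.

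Slc16a3 (ENSMUSG00000025161, chromosome 11, 120948484 to 120959000) encodes MCT4, the transporter through which glycolytic cells export lactate. It stood at 5.21 and 8.38 CPM in WT and at 141 and 117 CPM in KO, with a log2 fold change of 4.25 ± 0.33. Both KO libraries lay far above both WT libraries, by a difference close in size to that of Bnip3. Csnk1d overlaps its last 1292 bp and differed by -0.012 on the log2 scale (edgeR FDR 0.98).

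The stress-responsive genes Ndrg1, Ankrd37 and Ddit4 followed. Ndrg1 (ENSMUSG00000005125, chromosome 15, 66929318 to 66969641), a cytoplasmic protein induced by hypoxia and during differentiation, stood at 6.48 and 6.64 CPM in WT and at 27.8 and 17.5 CPM in KO. The WT libraries were nearly level and the KO libraries apart, with a log2 fold change of 1.79 ± 0.36. Ankrd37 (ENSMUSG00000050914, chromosome 8, 45996908 to 46000414), an ankyrin repeat protein known as a HIF target, stood at 1.91 and 2.50 CPM in WT and at 8.74 and 6.51 CPM in KO. It had only 18 and 23 counts in WT and 73 and 55 in KO, and its log2 fold change was 1.78 ± 0.45. Ddit4 (ENSMUSG00000020108, chromosome 10, 59949675 to 59951770), also called REDD1 and an inhibitor of mTORC1, stood at 143 and 152 CPM in WT and at 188 and 113 CPM in KO. The KO libraries lay on either side of the WT libraries, and the log2 fold change was 0.03 ± 0.29.

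Vegfa (ENSMUSG00000023951, chromosome 17, 46016993 to 46032377), the secreted growth factor of blood vessels and a classical HIF target, stood at 157 and 114 CPM in WT and at 71.6 and 95.7 CPM in KO. Both KO libraries were below both WT libraries, and the log2 fold change was -0.70 ± 0.27, the lowest of the 10. Without WT replicate 2, Vegfa passed the threshold as lower, at a log2 fold change of -0.94.

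Bnip3, Slc16a3 and Egln3 stayed past the threshold without any 1 of the 4 libraries, with log2 fold changes of 4.05 to 4.53, 3.94 to 4.59 and 2.49 to 2.64. Ndrg1 lost its call without KO library B (1.42). Ankrd37 lost its call without WT replicate 1 (1.60), WT replicate 2 (1.96) or KO library B (1.56), and kept it without KO library F (1.99). Egln1 ranged from -0.19 without KO library B to 0.65 without KO library F, and Ddit4 from -0.39 to 0.36 under the same omissions. KO library B was the higher KO library for 8 of the 10 genes, all but Vegfa and Hif1a.

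**Figure D3:**
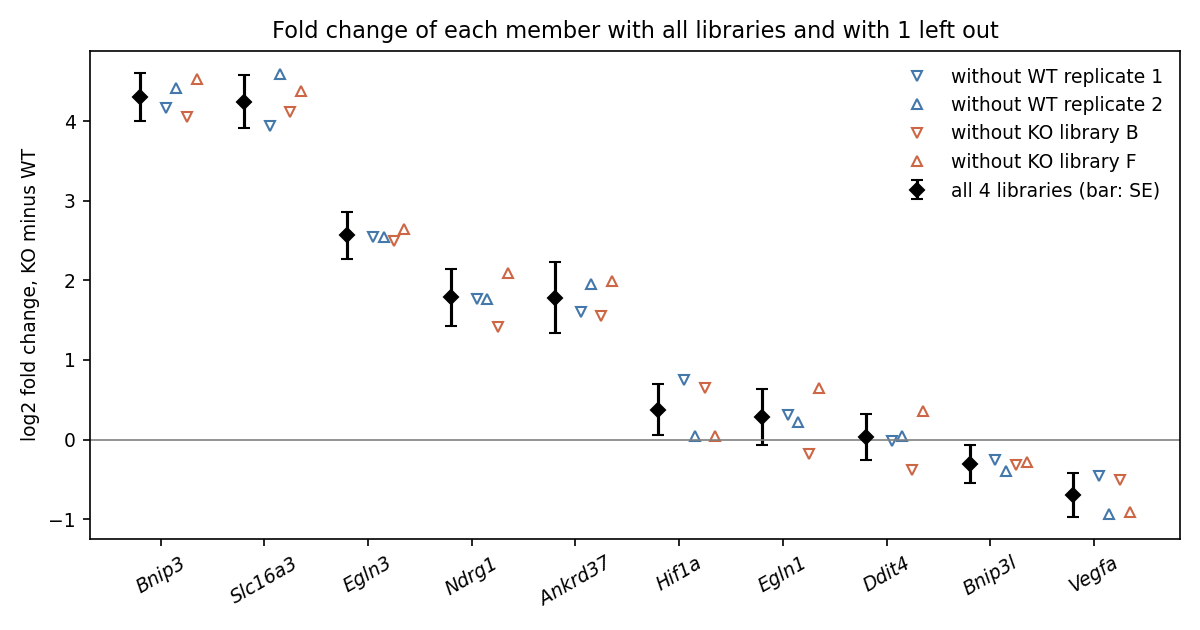
Log2 fold change of each gene, KO minus WT (y axis), with all 4 libraries (diamonds, bars are SE) and with 1 library left out (triangles). Bnip3, Slc16a3 and Egln3 stay above 2 whichever library is left out, while Egln1 and Ddit4 change sign.

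The genes around these members were read from 9 lists with 127 genes in all, 118 of them tested. Of these, 17 were called higher and 10 lower in KO, and the median log2 fold change was 0.05. Over all tested genes, 2.96% were called higher and 5.34% lower, and these shares stand beside the counts of each list below. The lists were chosen with earlier results of these data known, so the counts describe that choice. Without any 1 library the higher count ran from 12 to 23 and the lower from 5 to 18, with the highest of both without WT replicate 1 and the lowest lower count, 5, without KO library F (6 without KO library B).

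In the oxygen-sensing list, 2 of 17 tested genes were called higher and 0 lower. Epas1, which encodes HIF2-alpha, stood at 12.1 and 10.8 CPM in WT and at 29.7 and 42.8 CPM in KO (log2 fold change 1.66, edgeR FDR 0.019). Hif3a, an alpha subunit whose short forms can restrain the others, stood at 7.12 and 5.00 CPM in WT and at 24.8 and 18.1 CPM in KO (log2 fold change 1.82, edgeR FDR 0.022). Os9, a lectin that binds HIF1-alpha, had a log2 fold change of -1.07 and did not pass (edgeR FDR 0.051). The median of the list was 0.20. At an unadjusted p under 0.05, edgeR gave 4 higher and 2 lower. DESeq2 called 1 lower and limma voom 0. Without KO library F, 1 of the 2 called genes was left, as Epas1 lost its call, and without WT replicate 1 the list had 3 called higher and 3 lower.

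Among 27 tested genes of the 30 on the list of other HIF targets, 3 were called higher and 2 lower, with a median of 0.48. Loxl2, a lysyl oxidase of the extracellular matrix, stood at 0.850 and 0.870 CPM in WT and at 9.82 and 8.65 CPM in KO (log2 fold change 3.40, edgeR FDR 0.0067). Ndufa4l2, a mitochondrial protein related to a respiratory chain subunit, stood at 0.956 and 1.52 CPM in WT and at 24.4 and 9.59 CPM in KO (3.77, edgeR FDR 0.0097). Ak4, a mitochondrial adenylate kinase, moved the other way, from 265 and 218 CPM in WT to 64.9 and 81.5 CPM in KO (-1.72, edgeR FDR 0.0082). The other called genes, named after their values were seen, were P4ha1, a collagen prolyl hydroxylase (1.54), and Wsb1, part of a ubiquitin ligase (-1.33). Both lost their call without KO library B, and Wsb1 also with library totals only. The list therefore held called genes in both directions. Without WT replicate 1, WT replicate 2 or KO library F the higher count was 7, 6 and 6, and DESeq2 gave 5.

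Glycolysis, the other main arm of the response, had 11 of 20 genes called higher and 1 lower, with a median of 1.31. Pdk1, the kinase that keeps pyruvate out of mitochondria, had a log2 fold change of 2.77, and the glucose transporter Slc2a1 had 2.19. Hk1, named after its values were seen, was the gene called lower (-1.15) and lost its call without either KO library. Without KO library B 7 were called higher.

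No gene of the mitophagy list, which leaves out Bnip3 and Bnip3l, was called in either direction (0 of 16, edgeR). At an unadjusted p under 0.05 edgeR gave 1 higher and 3 lower, DESeq2 called 1 lower and limma voom 0. Its median was -0.32. Sqstm1, the autophagy adaptor p62, had the smallest p, with 282 and 351 CPM in WT and 190 and 162 CPM in KO (log2 fold change -0.85, edgeR FDR 0.074). Without WT replicate 1, 3 genes of this list were called lower.

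Of the 6 tested genes for monocarboxylate transport beside Slc16a3, 1 was called higher and 0 lower, with a median of -0.25. That gene was Emb, which encodes embigin, a membrane chaperone of such transporters. Emb stood at 12.0 and 14.4 CPM in WT and at 205 and 172 CPM in KO, a 14.3-fold difference (log2 fold change 3.84, edgeR FDR 0.00086). Its call held without any 1 library, with log2 fold changes of 3.71 to 3.97. Slc16a1, which encodes MCT1, had a log2 fold change of 0.55 and did not pass (edgeR FDR 0.21). Bsg, named after its values were seen, encodes basigin, the usual chaperone of MCT1 and MCT4. It stood at 438 and 637 CPM in WT and at 517 and 366 CPM in KO, with overlapping genotypes. Without WT replicate 1 or KO library F, 2 genes of this list were called higher.

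In the mTORC1 list, 0 of 11 tested genes were called higher and 2 lower, with a median of -0.12. Ddit4l, the paralog of Ddit4, stood at 20.5 and 24.6 CPM in WT and at 7.19 and 6.51 CPM in KO (log2 fold change -1.72, edgeR FDR 0.019). Sesn2, a stress-induced inhibitor of mTORC1, stood at 267 and 300 CPM in WT and at 118 and 159 CPM in KO (-1.04, edgeR FDR 0.044). Sesn2 lost its call without either KO library and with library totals only. Ddit4 itself overlapped between genotypes, as given above.

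Ddit4 and Vegfa also answer to ATF4, the factor of the integrated stress response. Of the 13 genes on the list for that response, 5 were called lower and 0 higher, with a median of -0.72. The other 8 were not called, among them Atf4, named after its values were seen (-0.36, edgeR FDR 0.45). A link between this list and the levels of Ddit4 and Vegfa was not tested. Atf3, a stress-induced transcription factor, stood at 12.8 and 14.1 CPM in WT and at 1.80 and 2.25 CPM in KO (log2 fold change -2.72, edgeR FDR 0.0085). Nupr1 (-1.56, edgeR FDR 0.019) and Cebpb (-1.83, edgeR FDR 0.026), a stress-induced chromatin protein and a leucine zipper factor, were lower as well. The other called genes, named after their values were seen, were Asns and Ddit3. Both KO libraries were below both WT libraries for 10 of the 13, as for 27.5% of all tested genes. Without KO library F, 2 were called lower, and Nupr1, Asns and Ddit3 lost their call.

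None of the 5 tested genes of the VEGF family and its receptors was called (0 of 5, edgeR), with a median of -0.02. At an unadjusted p under 0.05 edgeR gave 1 lower, DESeq2 and limma voom called 0, and 1 was called lower without WT replicate 2. The receptor genes Kdr and Flt1 and the ligand gene Pgf did not pass the filter on low counts. None of the 3 other NDRG genes, Ndrg2, Ndrg3 and Ndrg4, was called (0 of 3 in edgeR, DESeq2 and limma voom, and 0 at an unadjusted p under 0.05), and their log2 fold changes lay between -0.05 and 0.22.

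**Figure D4:**
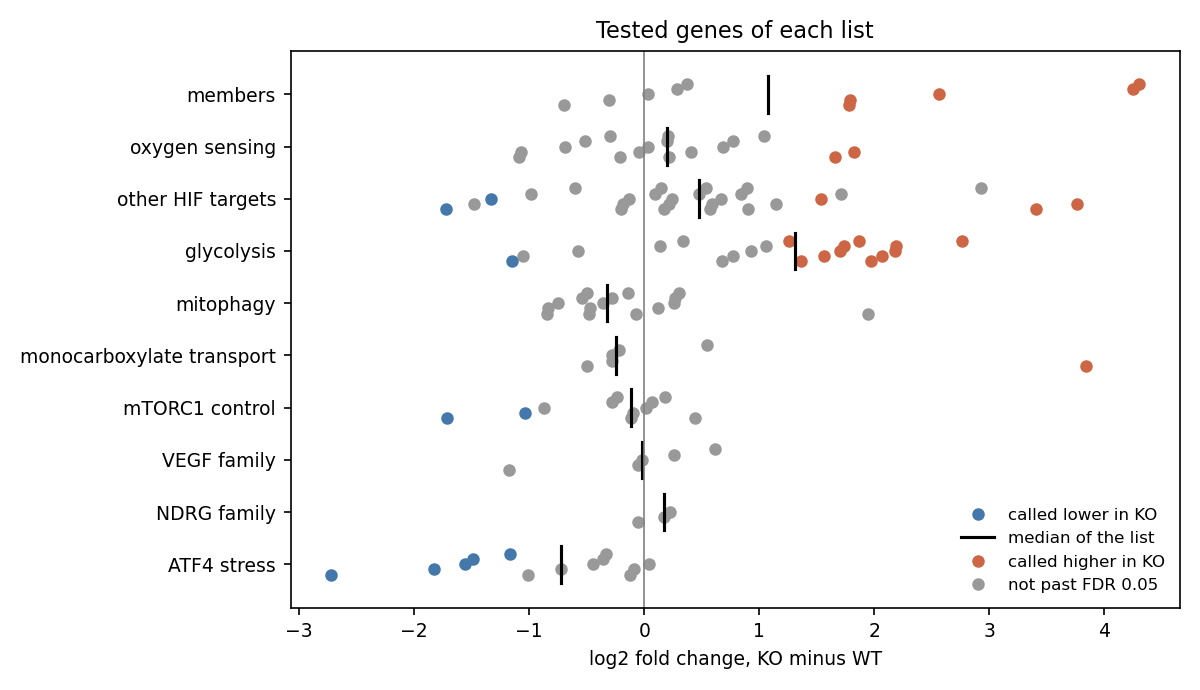
Log2 fold change, KO minus WT (x axis), of the tested genes of each list (rows), with called genes in colour and the median as a bar. The 5 called members lie to the right, monocarboxylate transport holds 1 called gene far to the right (Emb), and the 5 called genes of the ATF4 list lie to the left.

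The genes whose pattern over the 4 libraries was most like that of Bnip3 were found by the distance between centred log2 CPM profiles, among 11765 genes. The nearest outside the 10 were Lef1 (distance 0.42), Emb (0.46), Myrf (0.55), Gap43 (0.75) and Car4 (0.80). Of the 10 themselves, Slc16a3 was nearest, at 0.31. Egln3 (1.77), Ndrg1 (2.56) and Ankrd37 (2.65) came next, and the other members were at 3.98 or more. The edgeR fold difference was 30.5 for Lef1, 14.3 for Emb, 24.6 for Myrf, 130 for Gap43 and 68.5 for Car4, against 19.8 for Bnip3. WT counts were only 7 and 9 for Lef1, 2 and 0 for Gap43, and 1 and 2 for Car4. The profiles include a pseudocount of 0.5 CPM, which narrows differences that start from such low levels. With 2 libraries per genotype, the distance mostly follows the size of the difference between genotypes on that scale.

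The chromosomes around the members were compared next, since 1 of them was shifted as a whole. On chromosome 14, which holds Bnip3l, the 465 other tested genes had a median log2 fold change of -0.63, with 16 called higher and 82 lower. On the chromosomes of the other 9 members the medians lay between -0.10 and 0.06. The 11 tested genes within 1 Mb of Bnip3l had a median of -0.76, and Ephx2 and Trim35 were called lower. Bnip3l, at -0.31, was closer to 0 than the median of its neighbours. The part of this shift in its value was not tested. Neighbours within 1 Mb had a median of -0.27 for Bnip3 (7 genes), -0.12 for Slc16a3 (53 genes), 0.49 for Egln3 (8 genes), -0.20 for Ndrg1 (2 genes) and 0.22 for Ankrd37 (10 genes). Among these neighbours, 1 was called higher at each of Bnip3 (Tcerg1l), Egln3 (2700097O09Rik) and Ankrd37 (Lrp2bp). At Slc16a3, Dcxr was called lower, and no neighbour of Ndrg1 was called. For each of these 5 genes the median of the neighbours was closer to 0 than the gene's own value. These 5 are the members called higher, so that order follows from how they were picked and nothing is read from it. Of the 14 neighbours of Ddit4, P4ha1, Vsir and Spock2 were called higher, around a gene that overlapped between genotypes.

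Pol II contacts were read from 19914 listed pairs with 35189 paired-end tags (PETs) in the WT pool and 118475 pairs with 401726 PETs in the KO pool. There is 1 pool per genotype, so no difference was tested, and intervals cover counting error only. Each pool has its own list of anchors, and the values move with how much was listed. Among tested genes touched by at least 1 pair, the median was 14.2 PETs per 100000 in WT and 5.97 in KO, so values per 100000 are set beside those medians and not against each other. Of the 10 genes, 6 were touched in WT, where 54.2% of tested genes were, and 8 in KO, where 75.6% were. In all, 26 pairs with 34 PETs touched them in WT and 62 pairs with 136 PETs in KO. Most rested on a single tag, as 22 of 24 pairs between different anchors in WT and 45 of 57 in KO had 1 PET.

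Bnip3 had 2 PETs in WT, or 5.68 per 100000 (95% Poisson interval 0.688 to 20.5), and 49 in KO, or 12.2 per 100000 (9.02 to 16.1). Its WT value was below the median of touched genes, with an interval that includes it. Its KO value was above the median of touched genes, and so was the whole interval. The KO value still lay between the quartiles of touched genes, 2.49 and 14.9 per 100000. The place of the anchor differed as well. In WT, 1 anchor (chromosome 7, 138908858 to 138910534) covered the start of Bnip3. In KO the only anchor (138896975 to 138900304) lay inside the gene, 9.20 kb from the start, and covered the pseudogene Gm18258. Of the KO tags, 10 lay within that anchor and 19 joined it to a site 47.0 kb away (138844470 to 138858817) that holds the start of Ppp2r2d. A further 7 and 6 PETs joined it to sites at 20.5 and 34.6 kb. In WT, 1 PET joined the start of Bnip3 to the start of Ppp2r2d, 63.9 kb away. Both pools thus list a contact of Bnip3 with Ppp2r2d, from different anchors. Ppp2r2d, a regulatory subunit of protein phosphatase 2A, had a log2 fold change of 0.54 and did not pass (edgeR FDR 0.19).

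At Egln3, 3 PETs in WT, or 8.53 per 100000 (1.76 to 24.9), touched an anchor over its start (chromosome 12, 54202879 to 54205585), each with a different partner, the farthest 492 kb away. In KO 0 PETs were listed, with a 95% Poisson upper limit of 0.918 per 100000. The WT value was below the median of touched genes, with an interval that includes it. Slc16a3 had 8 PETs in WT, or 22.7 per 100000 (9.82 to 44.8), and 17 in KO, or 4.23 per 100000 (2.47 to 6.78), at the same anchor over its start (chromosome 11, 120948488 to 120950405). The Slc16a3 value was above the median of touched genes in WT and below it in KO, but both intervals include those medians. No contrast with its higher RNA in KO is therefore read from them. Of the 6 WT and 12 KO partners, most of them joined by 1 PET, 1 was in both lists, 148 kb away in WT. The WT pair with the most tags (2 PETs) joined it to the start of Tex19.1, 197 kb away, and the KO pair with the most (3 PETs) to a site 98.2 kb away.

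Ddit4 was the member with the most WT tags, with 16 PETs, or 45.5 per 100000 (26.0 to 73.8), and had 39 in KO, or 9.71 per 100000 (6.90 to 13.3). Both values were above the medians of touched genes. The WT value was also above the upper quartile (25.6 per 100000), while the KO value lay between the quartiles (2.49 and 14.9). Within its anchor over the start lay 7 PETs in WT and 12 in KO, and 10 KO PETs joined it to a site 8.03 kb away. A single KO tag, named after its partner was seen, joined Ddit4 to the start of P4ha1, 627 kb away. Vegfa had 3 PETs in WT, or 8.53 per 100000 (1.76 to 24.9), and 14 in KO, or 3.48 per 100000 (1.91 to 5.85). The KO interval of Vegfa lay wholly below the median of touched genes (5.97), with the value between the quartiles. The contact of Vegfa with the start of Mrps18a was listed in both pools, with 2 PETs in WT (78.9 kb) and 1 in KO (80.7 kb).

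The other members had few tags. Bnip3l had 0 in WT, with a 95% Poisson upper limit of 10.5 per 100000, and 9 in KO, 4 of them within 1 anchor. Hif1a had 0 and 4, Egln1 0 and 3, Ankrd37 2 and 1, and Ndrg1 0 in both pools. The KO intervals of Bnip3l, Hif1a, Egln1 and Ankrd37 lay wholly below the KO median of touched genes. Their upper limits were 4.25, 2.55, 2.18 and 1.39 per 100000, against 5.97. At this depth, and with separate anchor lists, a contact missing in WT cannot be told apart from one too rare to be listed.

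**Figure D5:**
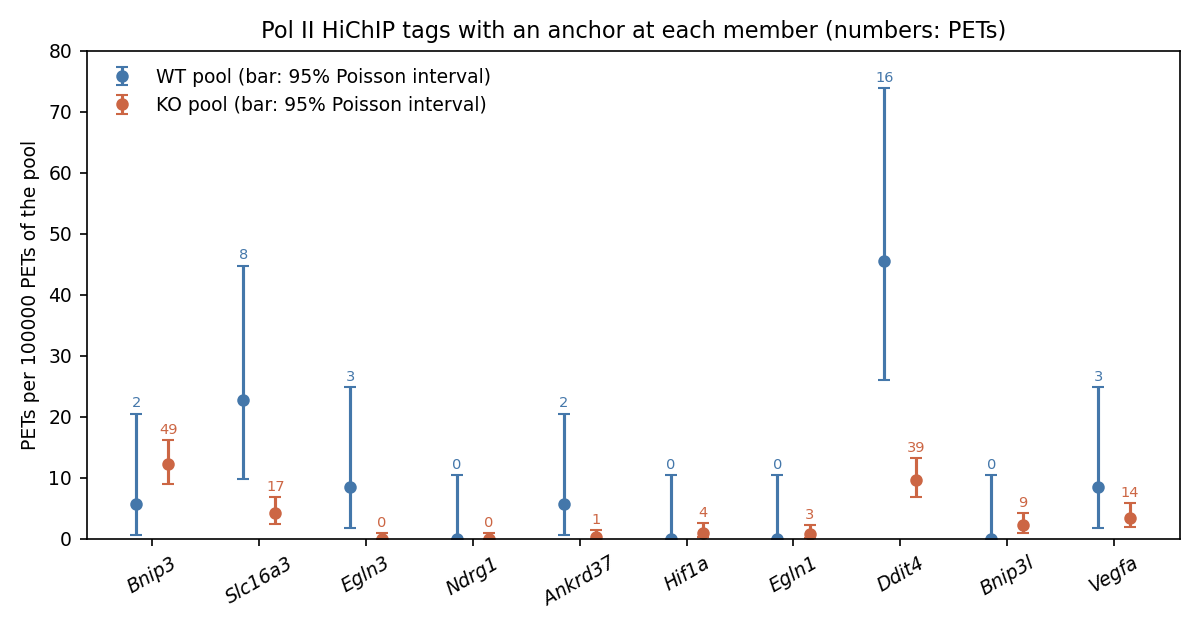
PETs with an anchor at each gene per 100000 PETs of the pool (y axis) in the WT and KO pools, with 95% Poisson intervals and the number of PETs above each. Bnip3 has 2 PETs in WT and 49 in KO, Egln3 has 3 and 0, and the WT intervals are wide.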

How the data were processed

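RNA-seq counts and HiChIP contacts of 8 samples were used. The submitters' processing notes name HiC-Pro 2.11.4 and DESeq2 1.18.1, as well as HTSeq 0.9.1, HISAT2 2.1.0 and the build mm10. Gene counts, as deposited, are unnormalised integers for each Ensembl gene, and 34.5% to 36% of the records of each file lay in genes. The deposited contact files give PET counts per anchor pair, 1 pooled file per genotype. The sources used here do not give the loop caller, filters, annotation release or strand setting.

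Genotypes were compared by the quasi-likelihood F-test of edgeR 4.0.16 (R 4.3.3) after filterByExpr and TMM scaling, with genotype alone in the model, Benjamini-Hochberg adjustment over all genes and an FDR threshold of 0.05. The BCV was 0.256 on 2 residual and 6.29 prior degrees of freedom. The script was tested on simulated data. SE is the log2 fold change divided by the root of F. CPM of single genes is scaled by TMM, while the summed marker levels are scaled by each library's total gene counts only. Positions are RefSeq (GRCm38.p6) spans. A pair touched a gene when an anchor lay in its span widened by 2500 bp. Alternatives were RLE, library totals, DESeq2 1.42.0, limma voom (3.58.1), other filters and each library left out.

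The members and lists were chosen with earlier results of these data known. Named genes were the 10 members, Klf4, up to 3 genes with the smallest p per list, the 5 genes nearest to Bnip3 (pseudocount 0.5, mean of at least 2 CPM, without predicted genes, Rik clones and pseudogenes), and genes starting within 2500 bp of the partner anchor in the 3 pairs with the most PETs per member. Cell type markers, genes overlapping a member, called neighbours of a member and some list genes below the filter were also named. Other genes outside this rule are marked as named after their values or partner were seen.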

Additional observations from a re-analysis of the deposited data

How the results depend on the processing

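Bnip3, Slc16a3 and Egln3 stayed past the threshold under RLE factors, library totals, DESeq2, limma voom, the 1 CPM filter and each left-out library. Without a filter beyond 1 count, which raised the genes tested to 27254, 0 members, 0 and 0 other pathway genes (higher and lower) and 1 and 1 of all genes were called, while 5 members had an unadjusted p under 0.05. Limma voom called 4 members, without Ankrd37. With 1 library left out, members called higher ran from 3 to 5 and lower from 0 to 1, other pathway genes from 12 to 23 and 5 to 18, and all genes from 387 to 1151 and 618 to 1366. Log2 fold changes ran from -0.19 to 0.65 for Egln1 and -0.39 to 0.36 for Ddit4 in these fits, and Ddit4 was at -0.018 with limma voom. The cause was not tested. PETs at the members fell from 34 to 11 in WT and from 136 to 90 in KO when pairs of 1 PET were left out, and to 87 in KO with start sites only. Within 2 Mb, neighbours of Bnip3l, Egln1, Ankrd37 and Ndrg1 had medians of -0.98, -0.06, 0.14 and 0.06. Counting motifs in the 250 bases before the start only left ACGTG in 8 of 9 windows. No paired analysis was possible because the KO columns carry letters in place of replicate numbers. A fit with 1 library in a genotype assumes that it varies like the other. Depth limits Ankrd37, with 18 and 23 counts in WT, and the WT contacts, most of them of 1 PET.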
